A study of Mus musculus with 2 samples.

Results

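Interferon response and MHC class I genes were compared between a pool of livers from Yap+/- mice and a pool of livers from Yap+/+ mice. The set held 41 named genes, in 3 groups by role: 27 genes of the type I interferon response, 6 genes typical of gamma-interferon and 8 genes of class I antigen presentation. A gene entered through every probe set whose annotation gave its symbol alone, and the brightest of these, by its mean over the arrays, stood for it. Of the 41 genes, 39 had such a probe set and 36 were measured, which here means a mean log2 value of at least 6, out of 9299 measured genes among 18193. Isg15 and Ifi44 had no probe set of their own, and Mx1, Oasl2 and Stat2 lay under the minimum.

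The mice of both genotypes were on a C57BL/6 background, were given no treatment and were 30 days old (postnatal day 30). Yap+/- mice carry 1 working copy of Yap1, whose product YAP is the co-activator that Hippo signalling restrains, and Yap+/+ mice were the controls. Livers of 5 mice per genotype were pooled and each pool was run on 1 Affymetrix array, so each value below is a single measurement, no difference was tested and none has an error. The sex of the mice is not given in the labels, and whole liver RNA mixes hepatocytes with the other cells of the organ.

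Interferons are secreted alarm proteins of infection. Type I interferons (alpha and beta) act through the receptor chains IFNAR1 and IFNAR2 and the kinases JAK1 and TYK2, which lead to the ISGF3 complex; this complex binds the interferon-stimulated response element (ISRE) and switches on antiviral effectors. Gamma-interferon, made mainly by T and NK cells, acts through IFNGR1 and IFNGR2, and its signal reaches DNA at the gamma-activated site (GAS), inducing Irf1, the guanylate-binding proteins, the immunity-related GTPases and the class I pathway. In that pathway the immunoproteasome cuts proteins into peptides, TAP carries them into the endoplasmic reticulum, and tapasin loads them onto class I heavy chains paired with beta-2-microglobulin. In liver, Kupffer cells (the resident macrophages), sinusoidal endothelium and hepatocytes all respond to interferon.

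Promoter sequences are shown for the 4 measured members that differed most between the pools, and for Irf1, B2m and Tap1 as promoters of the gamma and class I branches. Each window runs 5′ to 3′ on the strand of the gene, from 250 bases before to 50 bases after an annotated transcript start, from RefSeq on GRCm38.p6. Capitals mark matches to the ISRE core, which is GAAA, then any 2 bases, then GAAA, searched on both strands, or to the GAS pattern TTCNNNGAA, which reads the same on both strands. Gbp3 lies at chr3:142559794-142560093 (plus strand), Gbp2 at chr3:142620413-142620712 (plus), Ifit2 at chr19:34550444-34550743 (plus), Eif2ak2 at chr17:78882523-78882822 (minus), Irf1 at chr11:53769764-53770063 (plus), B2m at chr2:122147437-122147736 (plus) and Tap1 at chr17:34187306-34187605 (plus).
Gbp3: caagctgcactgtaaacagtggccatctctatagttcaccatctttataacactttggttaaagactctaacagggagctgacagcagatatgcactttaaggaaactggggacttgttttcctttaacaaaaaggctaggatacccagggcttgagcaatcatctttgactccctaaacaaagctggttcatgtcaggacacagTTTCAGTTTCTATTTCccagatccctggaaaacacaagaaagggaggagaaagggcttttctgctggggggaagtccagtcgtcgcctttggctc
Gbp2: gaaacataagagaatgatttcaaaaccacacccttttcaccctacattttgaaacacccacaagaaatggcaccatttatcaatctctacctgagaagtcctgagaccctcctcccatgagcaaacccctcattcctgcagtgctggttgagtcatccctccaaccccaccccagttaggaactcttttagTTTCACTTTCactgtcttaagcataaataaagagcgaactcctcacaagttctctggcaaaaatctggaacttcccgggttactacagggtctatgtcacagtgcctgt
Ifit2: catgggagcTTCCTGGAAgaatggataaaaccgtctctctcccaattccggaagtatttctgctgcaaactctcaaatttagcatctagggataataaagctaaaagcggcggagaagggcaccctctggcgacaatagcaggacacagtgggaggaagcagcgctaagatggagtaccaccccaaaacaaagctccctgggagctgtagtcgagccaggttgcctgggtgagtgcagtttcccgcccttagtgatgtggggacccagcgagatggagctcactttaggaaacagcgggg
Eif2ak2: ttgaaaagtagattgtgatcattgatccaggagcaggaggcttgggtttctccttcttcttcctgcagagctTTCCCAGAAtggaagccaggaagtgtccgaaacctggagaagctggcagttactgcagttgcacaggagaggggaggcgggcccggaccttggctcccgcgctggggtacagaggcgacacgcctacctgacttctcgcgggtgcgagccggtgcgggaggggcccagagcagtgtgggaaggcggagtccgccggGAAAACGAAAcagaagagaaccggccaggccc
Irf1: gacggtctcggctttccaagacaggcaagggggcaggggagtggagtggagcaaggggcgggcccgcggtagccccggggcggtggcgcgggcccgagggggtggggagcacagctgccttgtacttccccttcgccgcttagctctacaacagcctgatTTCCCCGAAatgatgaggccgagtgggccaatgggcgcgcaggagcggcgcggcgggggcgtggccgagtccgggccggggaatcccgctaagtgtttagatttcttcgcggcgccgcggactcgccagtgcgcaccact
B2m: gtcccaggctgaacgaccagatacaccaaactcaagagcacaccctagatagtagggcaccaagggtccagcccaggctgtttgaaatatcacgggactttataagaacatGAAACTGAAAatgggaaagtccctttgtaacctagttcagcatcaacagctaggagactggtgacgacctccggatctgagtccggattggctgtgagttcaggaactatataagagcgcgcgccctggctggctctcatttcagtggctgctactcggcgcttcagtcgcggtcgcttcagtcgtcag
Tap1: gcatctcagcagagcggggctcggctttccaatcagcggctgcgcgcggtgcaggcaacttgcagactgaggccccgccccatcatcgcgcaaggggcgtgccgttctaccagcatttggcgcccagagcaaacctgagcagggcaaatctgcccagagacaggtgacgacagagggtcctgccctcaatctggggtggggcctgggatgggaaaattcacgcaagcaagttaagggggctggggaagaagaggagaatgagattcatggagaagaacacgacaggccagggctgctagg

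Of the 41 genes, 32 had at least 1 promoter window. An ISRE core was present in 16 of them, or 50%, whereas 3.99% of 27025 genes with a window held one. A GAS match was present in 9 of the 32, or 28.1%, against 9.55% of all genes with a window. By role, the ISRE core was found in 11 of 20 type I genes, in 4 of 6 gamma-interferon genes and in 1 of 6 class I genes, B2m. The GAS was found in 6 of 20, 2 of 6 and 1 of 6, the last being Psmb8. Both motifs occurred in 4 genes, Oas1a, Eif2ak2, Bst2 and Igtp, and 11 genes had neither. ISRE cores can overlap one another, as 2 do in Gbp3, and in Bst2 the GAS match shares bases with an ISRE core.

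The 2 genes with the largest positive differences, Gbp3 and Ifit2, did not share a motif match in the windows searched. Gbp3 held 2 overlapping ISRE cores at positions -45 to -30 from the start, and Gbp2 held 1 core at -59 to -50. The Ifit2 window held only a GAS match far upstream, at -241 to -233, and the windows at another annotated start of Ifit2 and of Gbp3 had no match of either kind. Eif2ak2, the most negative member, held an ISRE core at 18 to 27, after the start, and a GAS match at -178 to -170. Irf1 held its GAS match at -90 to -82, and B2m its ISRE core at -139 to -130. The Tap1 window had no match, and over 275 bases it is the reverse complement of the window of Psmb9, whose transcript starts 226 bases away on the other strand. Among measured members with a window, those with an ISRE core had a median log2 difference of 0.081 and those without 0.10; with and without a GAS match the medians were 0.11 and 0.095. A match describes letters in these windows and shows no binding.

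**Figure D1:**
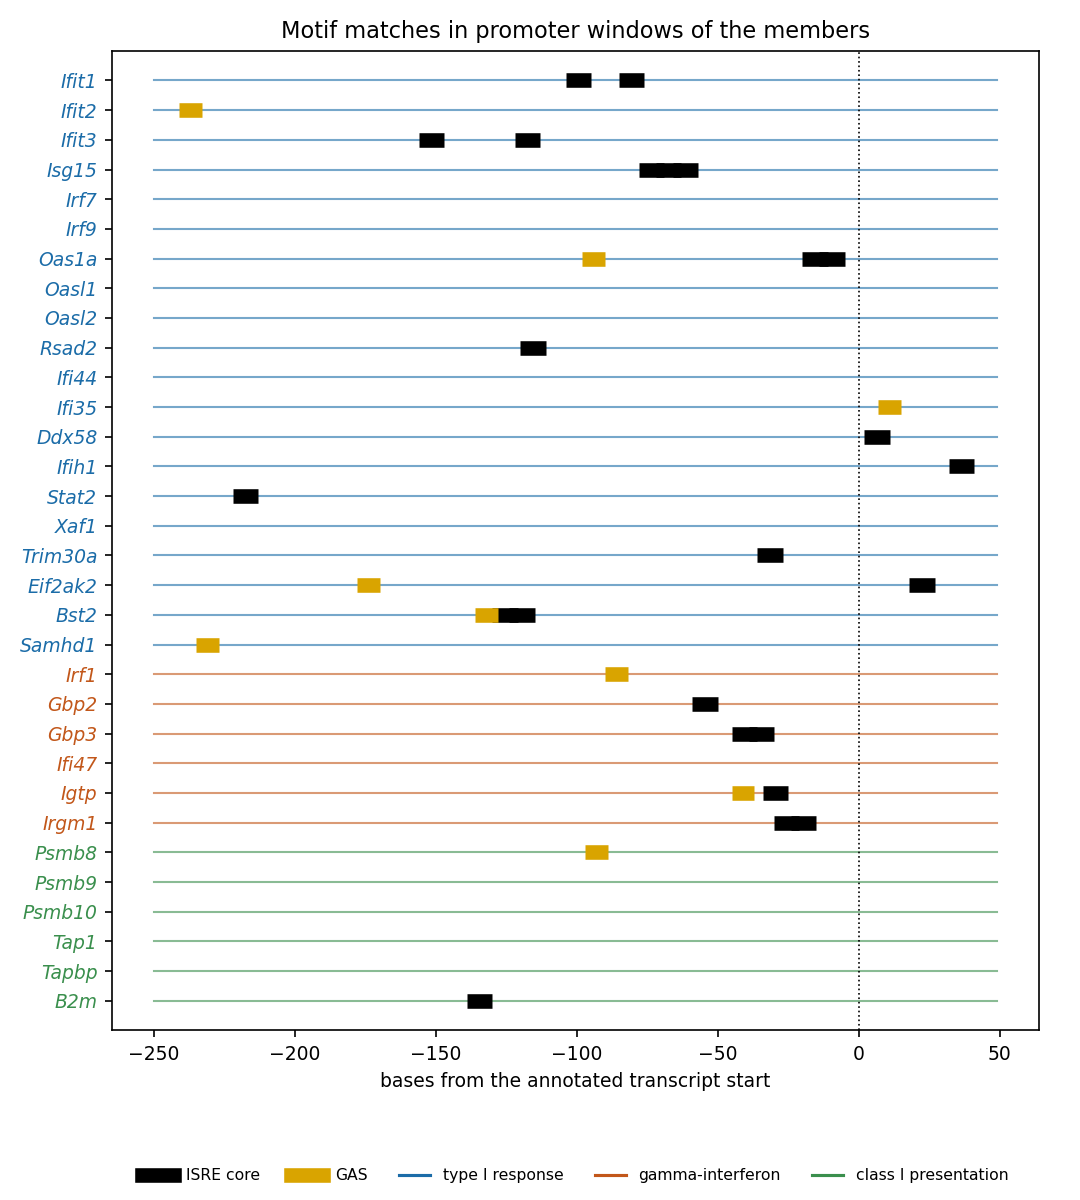
Positions of ISRE core matches (black) and GAS matches (yellow) along the promoter window of each of 32 member genes, in bases from an annotated transcript start at 0, with line and name colour giving the role. In the gamma-interferon genes every match lies upstream of the start, from -90 on, while 4 of 6 class I genes show none; where a gene has several windows, 1 with a match is drawn.

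Type I response genes differed little between the pools. Of 22 measured genes, 15 were higher in Yap+/- liver, 6 were lower and Rsad2 was equal, with a median log2 difference (Yap+/- minus Yap+/+) of 0.042, against 0.00 over all measured genes. Among them only Ifit2 was at least 1.2-fold higher, which is 0.26 on the log2 scale, and only Eif2ak2 at least 1.2-fold lower; Mx1 and Oasl2, under the minimum, also differed by more than that. Across all measured genes, 48.8% were higher by any amount, 6.02% at least 1.2-fold higher and 5.45% at least 1.2-fold lower.

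The IFIT proteins bind viral RNA that lacks the host cap marks and block its translation. Ifit2 read 6.92 in the Yap+/- pool, against 6.55 in the Yap+/+ pool, a 1.29-fold higher value that 2.75% of measured genes equalled or passed. Ifit3 read 8.47 in Yap+/-, against 8.31 in Yap+/+, and Ifit1 read 8.26 in Yap+/-, against 8.21 in Yap+/+. All 3 were higher in Yap+/-, with Ifit1 by only 0.044 on the log2 scale. The Ifit1 and Ifit3 windows each held 2 ISRE cores.

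Eif2ak2 encodes PKR, the kinase that halts translation on sensing double-stranded RNA. It read 6.49 in Yap+/-, against 7.05 in Yap+/+, 1.47-fold lower, the widest difference of any measured member; 0.764% of measured genes were as low or lower. Of its other probe sets, both with means below 6, 1 had 5.18 in Yap+/-, against 5.06 in Yap+/+ and the other had 4.39 in Yap+/-, against 4.60 in Yap+/+, so they did not share a sign. The lower reading thus rests on the 1 measured probe set.

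The cytosolic RNA sensors gave no common direction. Ddx58, which encodes RIG-I, read 8.56 in Yap+/-, against 8.69 in Yap+/+, and its other measured probe set read 6.21 in Yap+/-, against 6.49 in Yap+/+, both lower. Dhx58, the gene of the related regulator LGP2, read 6.33 in Yap+/-, against 6.47 in Yap+/+. Ifih1, which encodes MDA5, was nearly level at 9.46 in Yap+/-, against 9.44 in Yap+/+. Among sensors, then, RIG-I and LGP2 were slightly lower and MDA5 was level.

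The factors that drive the response were also close. Irf7, the factor that amplifies interferon alpha production, read 7.64 in Yap+/-, against 7.46 in Yap+/+. Irf9, the DNA-binding part of ISGF3, read 7.63 in Yap+/-, against 7.61 in Yap+/+. Stat2, its partner, was under the minimum at 5.91 in Yap+/-, against 6.06 in Yap+/+. Usp18, which removes ISG15 from proteins and dampens receptor signalling, read 8.83 in Yap+/-, against 8.91 in Yap+/+.

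The 2′-5′ oligoadenylate synthetase family, which activates the RNA-degrading enzyme RNase L or resembles proteins that do, had small positive differences at the genes measured. Oas1a read 8.38 in Yap+/-, against 8.20 in Yap+/+, and Oasl1 read 6.68 in Yap+/-, against 6.56 in Yap+/+. Oas2 differed by 0.039, and Oasl2, with a mean below 6, read 6.05 in Yap+/-, against 5.76 in Yap+/+. Of the family's genes outside the 41, all under the minimum, Oas1b differed by 0.093, Oas3 by -0.058 and Oas1c by -0.076. The Mx GTPases, which trap viral ribonucleoproteins, were dim. Mx2 read 6.13 in Yap+/-, against 6.07 in Yap+/+, and Mx1 lay under the minimum at 5.06 in Yap+/-, against 4.69 in Yap+/+, where a fold is not exact.

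The remaining antiviral effectors had no shared direction. Bst2, the tether of budding virions, read 10.8 in Yap+/-, against 10.6 in Yap+/+. Rsad2, which encodes viperin, read 9.53 on both arrays, one of 147 measured genes with a difference of exactly 0. Xaf1, a pro-apoptotic gene, differed by 0.056, Samhd1, a nucleotide hydrolase that starves viruses of DNA precursors, by 0.018, and Parp14, an ADP-ribosyltransferase, by -0.0049. Rtp4, a chaperone of receptor trafficking, read 9.20 in Yap+/-, against 9.33 in Yap+/+. Ifi35 and Trim30a depended on the probe set, as described below.

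**Figure D2:**
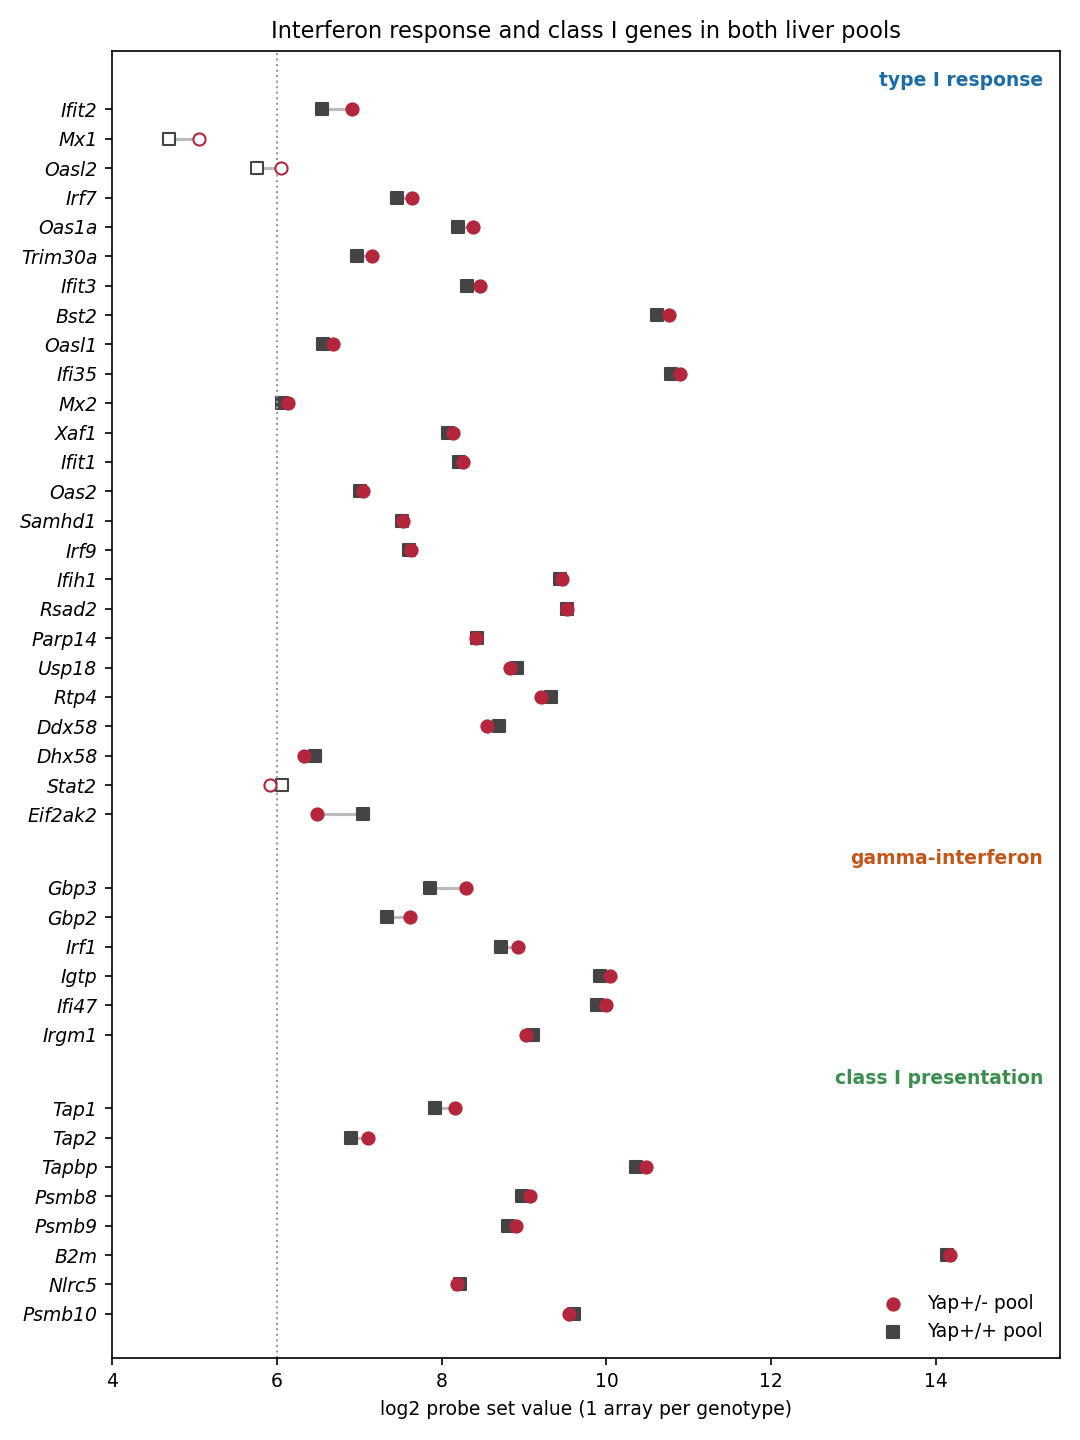
Log2 probe set values of 39 members in the Yap+/- pool (red circles) and the Yap+/+ pool (dark squares), 1 array each, sorted by difference within each role; open symbols are the 3 genes with a mean under 6 (dotted line marks 6). Most pairs of symbols touch, and the widest gaps are Eif2ak2 (6.49 in Yap+/-, 7.05 in Yap+/+), Gbp3 (8.30 in Yap+/-, 7.86 in Yap+/+) and Ifit2 (6.92 in Yap+/-, 6.55 in Yap+/+).

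Gamma-interferon genes were higher in Yap+/- liver at 5 of 6 members, with a median log2 difference of 0.16. Of the 6, Gbp2 and Gbp3 were at least 1.2-fold higher and 0 were at least 1.2-fold lower. The shares over all measured genes were 48.8% higher, 6.02% at least 1.2-fold higher and 5.45% at least 1.2-fold lower. The guanylate-binding proteins are GTPases that attack the vacuoles of intracellular pathogens. Gbp3 read 8.30 in Yap+/-, against 7.86 in Yap+/+, 1.35-fold higher, a difference that 1.80% of measured genes equalled or passed. Gbp2 read 7.62 in Yap+/-, against 7.34 in Yap+/+, 1.22-fold higher, and its other probe set read 7.27 in Yap+/-, against 6.93 in Yap+/+. Both probe sets of Gbp2 thus gave the same direction, at 0.28 and 0.34 on the log2 scale. Close relatives in this family can bind the same probes, so values of single Gbp genes are uncertain to that extent.

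Irf1, the transcription factor that carries the gamma-interferon signal to secondary targets, read 8.92 in Yap+/-, against 8.72 in Yap+/+. The immunity-related GTPases, which act on pathogen vacuoles with the Gbp proteins in mice, were split. Igtp read 10.04 in Yap+/-, against 9.93 in Yap+/+, and Ifi47 read 9.99 in Yap+/-, against 9.89 in Yap+/+. Irgm1, which controls the other members of its family, read 9.02 in Yap+/-, against 9.11 in Yap+/+, the only gamma-interferon member that was lower.

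Class I presentation genes were higher at 6 of 8 members, with a median of 0.099, and 0 of 8 passed 1.2-fold in either direction. Of all measured genes, 48.8% were higher, 6.02% at least 1.2-fold higher and 5.45% at least 1.2-fold lower. The peptide transporter showed the widest differences of the group. Tap1 read 8.17 in Yap+/-, against 7.93 in Yap+/+, 1.18-fold higher, and Tap2 read 7.10 in Yap+/-, against 6.90 in Yap+/+, 1.15-fold higher. Tapbp, the tapasin gene, read 10.5 in Yap+/-, against 10.4 in Yap+/+, a log2 difference of 0.11. B2m read 14.17 in Yap+/-, against 14.13 in Yap+/+ on 1 probe set and 14.06 in Yap+/-, against 14.01 in Yap+/+, on the other. The 2 probe sets of B2m differed by 0.048 and 0.050, at readings near the maximum of both arrays, 15.2.

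The immunoproteasome subunits replace the constitutive catalytic subunits under interferon. Psmb8 read 9.07 in Yap+/-, against 8.97 in Yap+/+, and Psmb9 read 8.90 in Yap+/-, against 8.81 in Yap+/+. Psmb10 read 9.55 in Yap+/-, against 9.61 in Yap+/+. Their constitutive counterparts Psmb5, Psmb7 and Psmb6 had log2 differences of -0.20, 0.25 and 0.027, so Psmb8 and Psmb5 differed in opposite directions, as did Psmb10 and Psmb7, and Psmb9 and Psmb6 were both slightly higher. Psmb9 and Tap1, which are transcribed away from each other from the overlapping promoter windows described above, differed by 0.095 and 0.24. Nlrc5, the transactivator of class I genes, read 8.19 in Yap+/-, against 8.23 in Yap+/+.

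Taking the 36 measured members as a set, 26 were higher in Yap+/- liver, 9 were lower and 1 was equal, so 72.2% were higher where 48.8% of all measured genes were. The set's median log2 difference was 0.079. In size the members' counts lay near the background: 3 of 36 (8.33%) were at least 1.2-fold higher and 1 of 36 (2.78%) at least 1.2-fold lower, beside 6.02% and 5.45% of measured genes. At 1.3-fold 1 member, Gbp3, was higher and 1, Eif2ak2, was lower, beside 2.63% and 2.15% of measured genes. At 1.5-fold, 0 members lay on either side, where 0.699% of measured genes were higher and 0.645% lower, nor at 2-fold, where these shares were 0.0968% and 0.226%. The robust SD of the difference over all measured genes was 0.15, and 24 of 36 members (66.7%) lay within it, as did 66.9% of measured genes.

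Set against each other, the type I genes had a lower median difference than the other 2 roles. Their median of 0.042, minus the 0.11 of the gamma-interferon and class I genes together, gave -0.066. The gap was -0.12 to the gamma-interferon genes alone and -0.058 to the class I genes alone. With 1 array per genotype these gaps were not tested.

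**Figure D3:**
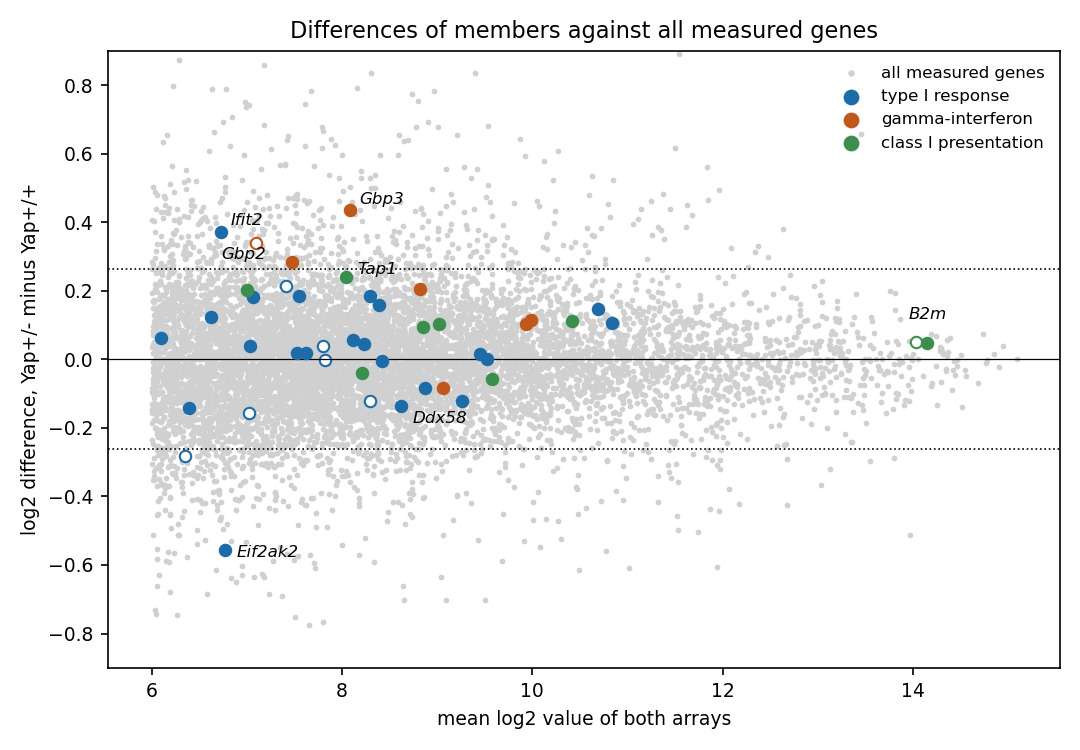
Log2 difference (Yap+/- minus Yap+/+) against the mean log2 value of both arrays for measured genes (grey) and the measured probe sets of members, coloured by role; filled symbols stand for the gene, open symbols are its other probe sets, and dotted lines mark 1.2-fold. Members sit within the grey cloud; of the filled symbols Gbp3, Ifit2 and Gbp2 lie above the upper line and Eif2ak2 below the lower one, and of the open symbols 1 of Gbp2 (0.34) lies above and 1 of Ddx58 (-0.28) below; 39 genes beyond 0.9 are not drawn.

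Probe sets of the same gene were compared where a member had more than 1 above the minimum, which was the case for 7 genes. In 4 of them, B2m, Ddx58, Gbp2 and Samhd1, all measured probe sets had the same sign. Ifi35 was 0.11 on its brightest probe set and -0.12 on another. Trim30a, a mouse gene that restrains Toll-like receptor signalling, was 0.18 on its brighter probe set and -0.16 on the other. Rsad2 was 0.00 and 0.039. The signs of Ifi35 and Trim30a are therefore unsettled, and the 2 Samhd1 probe sets, at 0.018 and 0.21, agreed in sign but not in size.

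Upstream of these genes, interferon ligands were not measured in either pool. Of 18 ligand genes, 9 had a probe set of their own, 0 reached the minimum, and their values lay between 2.98 and 5.51. Ifnb1 read 4.30 in Yap+/-, against 4.36 in Yap+/+, and Ifng read 3.09 in Yap+/-, against 3.13 in Yap+/+. At such levels the arrays do not show whether a ligand was transcribed. Receptors and JAK-STAT genes were higher at 10 of 12 measured members, with a median of 0.14, and 2 passed 1.2-fold, both higher. For this list and those that follow, the shares over all measured genes are again 48.8% higher, 6.02% at least 1.2-fold higher and 5.45% at least 1.2-fold lower. These were the feedback inhibitor Socs3, at 8.10 in Yap+/-, against 7.49 in Yap+/+, and the phosphatase Ptpn2, at 9.38 in Yap+/-, against 9.06 in Yap+/+. Socs3 also responds to interleukin-6. The receptor chains were close, with Ifnar1 at 0.19, Ifngr1 at 0.052, Ifngr2 at 0.0077 and Ifnar2 at -0.078.

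Sensing genes and IRF factors were higher at 6 of 9 measured members, with a median of 0.19. Irf2, which competes with IRF1 for the same DNA element, read 8.73 in Yap+/-, against 8.29 in Yap+/+, and Ticam1, the adaptor TRIF, read 7.21 in Yap+/-, against 6.87 in Yap+/+. Sting1, the adaptor of DNA sensing, was the only one at least 1.2-fold lower, at 5.95 in Yap+/-, against 6.22 in Yap+/+. Mavs, the adaptor that RIG-I and MDA5 share, read 10.24 in Yap+/-, against 10.04 in Yap+/+.

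A further list of interferon-stimulated genes outside the 41 had 35 measured genes, and 22 of these were higher in Yap+/-, 13 lower, the median being 0.12. In it 4 genes were at least 1.2-fold higher and 1 at least 1.2-fold lower. Cxcl9, a chemokine typical of gamma-interferon that attracts T cells, read 9.35 in Yap+/-, against 8.67 in Yap+/+, 1.60-fold higher. Gbp6 read 9.19 in Yap+/-, against 8.69 in Yap+/+, and the chemokine Cxcl10 read 7.34 in Yap+/-, against 6.91 in Yap+/+. Phf11d read 7.55 in Yap+/-, against 7.13 in Yap+/+. Trim34a was the exception, at 7.59 in Yap+/-, against 8.08 in Yap+/+.

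Class I heavy chains and their relatives were split. In that list of 9 measured genes 4 were higher, 5 were lower, and the median was -0.035. The lower ones were H2-M3 and the relatives Mr1, Fcgrt, Hfe and Azgp1. The classical chains H2-K1, at 13.04 in Yap+/-, against 13.00 in Yap+/+, and H2-D1, at 12.4 in Yap+/-, against 12.2 in Yap+/+, were slightly higher, as was H2-Q10, a secreted class I gene of liver, at 13.5 in Yap+/-, against 13.3 in Yap+/+. Mr1, which presents vitamin metabolites and was the only one past 1.2-fold, read 6.27 in Yap+/-, against 6.60 in Yap+/+, and Hfe, a class I relative that controls iron, differed by -0.14. A further 5 measured probe sets named several heavy chain genes each, and all 5 were higher, with H2-Q9 and H2-Q7 at 0.45, H2-T23 at 0.35, H2-Q6 and H2-Q8 at 0.25, the H2-T22 group at 0.037, and H2-K1 and H2-D1 at 0.029. Of all 480 measured probe sets of several genes, 59.8% were higher, 5.62% at least 1.2-fold higher and 5.62% at least 1.2-fold lower; of the 5 heavy chain ones, those of H2-Q9 and H2-Q7 and of H2-T23 passed 1.2-fold. Heavy chain genes are close in sequence, so their probe sets can read one another. Among other assembly genes, 3 of 9 were higher and the median was -0.067, with the chaperones Hspa5 and Calr at 0.14 and 0.13, and the peptide-loading partner Pdia3 at -0.12 and Tapbpl at -0.10.

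**Figure D4:**
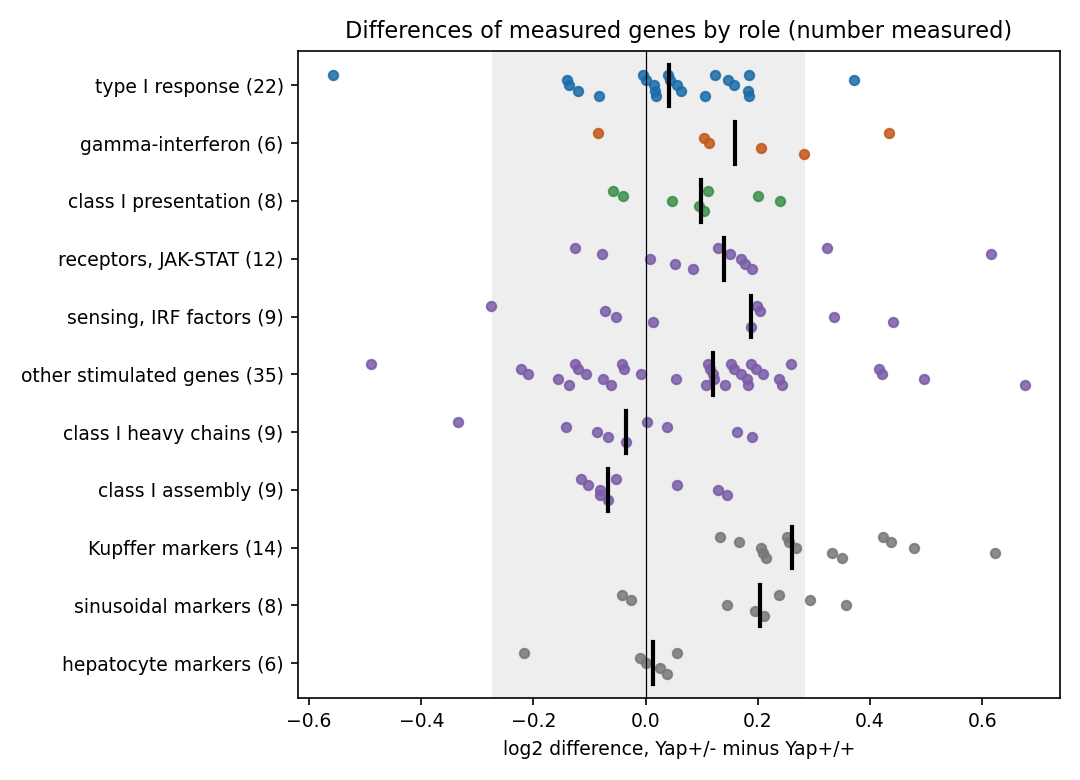
Log2 difference (Yap+/- minus Yap+/+) of each measured gene by role, with the number measured in brackets and a black bar at the median; the grey band spans the 5th to 95th percentile of all measured genes. Type I genes centre near 0.042, gamma-interferon genes at 0.16 and Kupffer cell markers at 0.26.

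Markers of macrophages were higher in Yap+/- liver. All 14 Kupffer cell and macrophage markers were measured and higher in Yap+/-, with a median of 0.26 and differences from 0.13 to 0.62. Beside 6.02% and 5.45% of measured genes, 7 of the 14 were at least 1.2-fold higher and 0 at least 1.2-fold lower. Their summed linear level was 13.8 in Yap+/-, against 13.5 in Yap+/+ on the log2 scale. Sinusoidal endothelial markers were higher at 6 of 8 measured genes, with a median of 0.20. Of the 8, 2 were at least 1.2-fold higher and 0 at least 1.2-fold lower. The 6 hepatocyte markers had a median of 0.013 and values from 12.07 to 15.1, so the defining genes of the labelled tissue were bright. In pooled liver RNA, more cells of a type and more RNA per cell cannot be told apart. The part of these markers in the differences above was not tested.

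Lymphocyte and dendritic cell markers were mostly dim. Of 11 T and NK cell genes with a probe set, 2 were measured, the chemokine Ccl5 at 7.14 in Yap+/-, against 6.52 in Yap+/+, and the protease Gzma at 6.39 in Yap+/-, against 5.96 in Yap+/+. Cd3e, which defines T cells, was under the minimum at 5.93 in Yap+/-, against 5.85 in Yap+/+, and Cd8a read 5.91 in Yap+/-, against 5.78 in Yap+/+. Cd3g, also dim, read 4.44 in Yap+/-, against 4.60 in Yap+/+, and Cd3d and Cd4 were equal. Of the 11 genes, whatever their level, 8 were higher and 1, Cd3g, was lower. Among all 18193 genes without the filter, 47.4% were higher. The dendritic cell markers had 0 of 5 measured. Siglech, which defines the plasmacytoid dendritic cells that make interferon alpha, read 4.77 in Yap+/-, against 5.00 in Yap+/+. Of the other plasmacytoid markers, the 3 measured ones, Bst2 (also a member), Tcf4 and Cox6a2, differed by 0.15, 0.0098 and 0.017. Their part in the values of the interferon genes was not tested either.

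Neutrophil and bile duct markers held the widest marker differences. S100a9, a calcium-binding protein abundant in neutrophils, was the 1 measured gene of 6 neutrophil markers with a probe set, at 7.02 in Yap+/-, against 5.58 in Yap+/+, a log2 difference of 1.43. Its partner S100a8, under the minimum, read 5.95 in Yap+/-, against 4.36 in Yap+/+, and the granule gene Ngp read 5.03 in Yap+/-, against 4.49 in Yap+/+. Of these 6 genes 4 were higher, and the summed level was 8.23 in Yap+/-, against 7.36 in Yap+/+ on the log2 scale; the primary granule gene Mpo read 4.44 in Yap+/-, against 4.54 in Yap+/+. The bile duct keratin Krt19, with a mean below 6, read 4.83 in Yap+/-, against 6.73 in Yap+/+. Krt7 read 4.72 in Yap+/-, against 4.88 in Yap+/+, and 0 of 5 cholangiocyte markers were measured. Of the 5, whatever their level, 4 were lower: Krt19, Krt7, Epcam and Cftr. The 1 that was higher, Sox9, read 5.81 in Yap+/-, against 5.56 in Yap+/+. Stellate cell markers were higher at 4 of 7, with a median of 0.0005, and Ighm, the 1 measured B cell marker of 5, differed by 0.052. The part of these markers in the interferon gene values was not tested.

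Some facts of the arrays bear on every value. The columns correlated at Pearson's r = 0.996 across 45101 probe sets, which are not independent replicates. The 3′ probe sets of 3 control transcripts exceeded the 5′ ones on both arrays, and by more in the Yap+/- sample. For beta-actin this log2 gap was 1.57 in Yap+/-, against 1.37 in Yap+/+. For Gapdh it was 0.49 in Yap+/-, against 0.27 in Yap+/+, and for pyruvate carboxylase 5.51 in Yap+/-, against 5.31 in Yap+/+. The gaps were thus wider in Yap+/- by 0.20, 0.22 and 0.21, and the part of this in the differences above was not tested. The brighter Yap1 probe set had 9.24 in Yap+/-, against 9.40 in Yap+/+; the labels do not say which part of the gene is deleted, so this checks them only weakly.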

How the data were processed

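The authors deposited log2 values per probe set, from 1 Affymetrix array per pool of 5 livers; per the submitters' processing notes, RMA (background correction, quantile normalisation and probe summary) and Partek 6.5 were used, with no settings given in the sources used here. The sorted columns differed by at most 0.047, so an overall shift between the pools would largely be removed. Probe sets were named from the supplied platform annotation: 34945 carried 1 symbol, 932 several and 9160 none listed, beside 64 array controls. The symbol had to match exactly, the brightest probe set stood for a gene, and a mean of at least 6 counted as measured. The 41 genes, their 3 roles, the other lists and the threshold of 1.2-fold were chosen with earlier results of these data known. Named genes outside the 41 are up to 4 per list with the largest difference, plus a few that the rule gave by name. The receptor chains, Ifnb1, Ifng, Mavs, the T and NK cell genes named, Siglech, the Oas genes outside the 41, and the neutrophil and bile duct genes named were chosen after their values were seen.

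With 1 array per genotype there is no test, and the number of arrays limits the precision. Members were matched to RefSeq promoter windows by gene identifier or symbol, and 32 of 41 matched. The counting was tested on simulated data, in which the planted changes were larger than the difference of any measured member. It checked the code, not how reliably differences as small as those above are counted. The alternatives tried included leaving out the filter, raising it to 7 and averaging a gene's probe sets. Another dropped every probe set with a lettered suffix of any kind, which left out Gbp3 and Irf1 among others. The rest were 3 other scalings, 64 added on the linear scale, other fold thresholds and leaving out the most different member. Versions were statsmodels 0.14.6, numpy 2.4.6 and pandas 2.3.3 under Python 3.11.15, with matplotlib 3.10.9 for plots.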

Additional observations from a re-analysis of the deposited data

Results flagged for a closer look

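Several probe sets named more than 1 gene and so stood for no gene in the lists. Some of these read at least 1.2-fold higher in Yap+/- liver than in the Yap+/+ control. Of 27 probe sets of several genes that include a listed gene, 14 were measured, among them the 5 of class I heavy chains given above. Of the 14, 12 were higher, 6 of them by at least 1.2-fold, and 1 was at least 1.2-fold lower. Over all 480 measured probe sets of several genes, the shares in that order were 59.8%, 5.62% and 5.62%. The non-classical class I genes H2-Q9 and H2-Q7 share a probe set that read 10.2 in Yap+/-, against 9.76 in Yap+/+, a log2 difference of 0.45. H2-T23, which encodes the ligand of an inhibitory NK cell receptor, shares one with the pseudogene H2-T-ps that read 12.4 in Yap+/-, against 12.1 in Yap+/+, a difference of 0.35. Tgtp1 and Tgtp2, immunity-related GTPases, share one that read 9.47 in Yap+/-, against 9.01 in Yap+/+, a difference of 0.46.

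Of the interferon-inducible DNA-binding family, a probe set of Ifi203 and relatives differed by 0.27, one of Mndal, Ifi211, Ifi205 and Ifi204 by 0.42, and one of Ifi211 and Ifi205 by 0.44. The last 2 share genes and are not independent. The probe set of Isg15, shared with Gm9706, read 7.46 in Yap+/-, against 7.39 in Yap+/+. The 41 genes had 8 measured probe sets that did not represent them, 4 higher and 4 lower. Past 1.2-fold were 1 of Gbp2, higher with a difference of 0.34, and 1 of Ddx58, lower with a difference of -0.28. The shared probe set that was at least 1.2-fold lower, of Trim34a and Trim34b, read 5.75 in Yap+/-, against 6.29 in Yap+/+. None of these differences was tested.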

How the results depend on the processing

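No paired analysis was possible because each genotype has 1 array, and for the same reason no replicate could be left out. The medians of the 3 roles kept their sign under all alternatives run, and the type I median stayed below that of the other roles together, with a difference between -0.086 and -0.056. The median of all members was between 0.042 and 0.095. It was 0.042, with 17 of 28 genes higher, when only probe sets without a suffix were used. The number at least 1.2-fold higher, 3, became 5 without a filter, which added Mx1 and Oasl2. It became 2 at a minimum mean of 7 and 2 with only probe sets without a suffix. It became 1 with 64 added on the linear scale, 1 at a threshold of 1.3-fold, and 0 at 1.5-fold and at 2-fold. The number at least 1.2-fold lower, 1, is Eif2ak2 alone: it became 0 at a minimum mean of 7, with the mean of all probe sets, without Eif2ak2, and at 1.5-fold and 2-fold. Subtraction of a lowess trend changed none of these counts of 1.2-fold. Centring on the median could not change them, because the median difference of measured genes was already 0. Quantile normalisation left them unchanged too, but the sorted columns differed by at most 0.047 beforehand, so it had little room to act. With 1 pool per genotype, the spread between mice is unknown.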
